A study of Mus musculus with 5 samples.

Results

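The replication-dependent histone genes encode the bulk of the H1, H2A, H2B, H3 and H4 proteins that package newly made DNA. They were taken as every protein-coding row of the count table whose symbol began with Hist1h to Hist4h, or had one of the newer forms for a clustered core or linker histone. Of the 55573 rows, 70 matched by name, 3 of these were not annotated as protein-coding, and 67 remained as members. The members were 6 H1, 18 H2A, 18 H2B, 12 H3 and 13 H4 genes, and 54 lay on chromosome 13, 10 on chromosome 3, 2 on chromosome 11 and 1 on chromosome 6.

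Their mRNAs are unusual among the mRNAs of animal cells. Most end in a conserved stem-loop instead of a poly(A) tail, and the stem-loop is bound by the stem-loop binding protein (SLBP), which serves 3′ end formation, export, translation and decay. When DNA synthesis stops or S phase ends, UPF1, an RNA helicase best known from nonsense-mediated mRNA decay (NMD), is recruited by SLBP and the mRNA is uridylated and degraded. Some replication-dependent histone genes are also transcribed past the stem-loop into longer, polyadenylated mRNAs, mainly in cells that have left the cell cycle.

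RNA-seq was made from N2A (Neuro-2A), a line of mouse neuroblastoma cells, with no genotype difference between the groups. Cells were transfected with 60 pmol of Silencer Negative Control #1, a commercial control siRNA (siCtl, 2 libraries, replicates 1 and 3), or of an siRNA against Upf1 (siUpf1, 3 libraries, replicates 1, 2 and 3), and 200 ng of RNA entered each strand-specific, poly(A)-selected library. The labels do not say that replicates came from separate cultures, so p-values measure only the spread between these libraries. The labels give no synchronisation of the cells and no inhibitor of DNA synthesis. The libraries held between 20402205 and 27717594 assigned reads. The normalised count of Upf1, which is a read count divided by the DESeq2 size factor of its library, was 5217 and 5243 in the siCtl libraries and 2403, 2496 and 2449 in the siUpf1 libraries. Its log2 fold change of siUpf1 over siCtl was -1.10 (SE 0.0507), so the targeted mRNA was reduced and not removed. Of 10 neuroblastoma and neural marker genes, 9 were tested, of which 6 were called higher and 2 lower (88.9%, beside 44.9% of all tested genes). Marker genes of 3 other cell types, of 6 genes each, summed to low levels. Those of fibroblasts summed to between 288 and 306 normalised counts in siCtl and from 223 to 258 in siUpf1, with Col3a1 and Lum at 0 and 1 of 3 tested genes (Pdgfra) called lower. Those of glia summed to between 475 and 508 in siCtl and from 529 to 560 in siUpf1, with Mog at 0, and those of immune cells to between 44.0 and 46.2 in siCtl and from 45.4 to 55.2 in siUpf1, with none called. Their part in the histone values was not tested.

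The stem-loop is the sequence that sets these mRNAs apart, and it also decides how they can be seen in a poly(A) library, so it is shown for members whose annotated transcripts hold it. Each line gives a stem-loop in capitals with its neighbouring bases in lower case, 5′ to 3′ as DNA letters of the GENCODE M21 transcript, on build GRCm38.
Hist1h1c (H1, capitals at chr13:23739512-23739527, + strand): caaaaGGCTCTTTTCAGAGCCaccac
Hist1h2be (H2B, chr13:23585531-23585546, - strand): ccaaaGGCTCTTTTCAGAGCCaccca
Hist3h2ba (H2B, chr11:58949349-58949364, + strand): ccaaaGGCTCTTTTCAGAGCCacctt
Hist2h4 (H4, chr3:96262939-96262954, - strand): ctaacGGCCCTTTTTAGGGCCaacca
Hist1h4i (H4, chr13:22040966-22040981, - strand): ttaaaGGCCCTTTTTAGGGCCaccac
Hist1h4j (H4, chr13:21735437-21735452, + strand): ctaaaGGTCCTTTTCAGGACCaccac
Hist1h3g (H3, chr13:23535889-23535904, + strand): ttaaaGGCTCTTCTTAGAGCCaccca
A stem-loop was counted where the transcript held, after the stop codon, GG as the first bases of a stem of 6 pairs closed by a 4-base loop of the histone type. It was found in 46 of 67 members (68.7%). For the other protein-coding genes the whole transcript was searched, with no limit to bases after the stop codon. The same pattern was in 10 of 21834 of these genes (0.0458%). The form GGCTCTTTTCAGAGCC was the most common, in 26 members, and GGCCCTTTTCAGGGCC followed in 7 and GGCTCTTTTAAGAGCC in 6. The distance from the stop codon to the stem-loop was 21 to 58 bases with a median of 31.

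The annotated transcripts fell into 3 kinds. In 23 members the transcript ended 3 to 74 bases after the stem-loop, which is close to where the processed mRNA ends. In another 23 it ran on for 108 to 4884 bases past the stem-loop, and 12 of these had a poly(A) signal (AATAAA or ATTAAA) in their last 50 bases, against 1 of the 23 that ended at the stem-loop. The remaining 21 held no stem-loop within the annotated transcript, which for many is only a coding sequence, and 3 of them had such a signal. No match says only that these letters were not in the annotated window. Hist2h2be (chr3:96221119-96223738, + strand) and Hist1h2bc (chr13:23684199-23692908, + strand) are members of the last kind.

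Few reads came from these genes. The 67 members together held 9804 reads, or 61.7 and 64.6 RPM (reads scaled to the total assigned reads of the library) in the siCtl libraries and 87.3, 83.0 and 90.5 RPM in the siUpf1 libraries. A read was present for 58 members, and 38 had reads in every library. Only 20 members were tested by DESeq2, since the tool sets aside genes whose mean is too low to be called. The 38 members with reads that were not tested had means of at most 7.10 normalised counts. The 4 members with a mean of at least 100, Hist1h1c, Hist1h2bc, Hist3h2ba and Hist2h2be, took 66.6% of all member reads. The values below are those of the histone RNA that poly(A)-selected libraries retained. Processed stem-loop mRNA has no poly(A) tail and is largely lost in such a preparation, so its level was not measured.

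The 9 members with no read in any library were of different sorts. For Hist1h1t, Hist1h2ba and Hist1h2aa, which encode testis-specific H1, H2B and H2A proteins, more than 70% of their 100-base windows occur in no other annotated gene, so reads of these genes could have been assigned. A count of 0 over all 126267890 assigned reads allows up to 0.0238 RPM, taking 3 reads as the limit. For the other 6, Hist2h2aa1, Hist2h3c1, Hist1h2bq, Hist1h2ao, Hist1h2ap and Hist1h2br, fewer than 10% of the windows were unique. Of all 10 members with fewer than 10% unique windows, 6 held no read. The rest held reads, among them Hist2h2bb and Hist2h3b with 0% of their windows unique. The part of low uniqueness in these zeros was not tested.

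**Figure D1:**
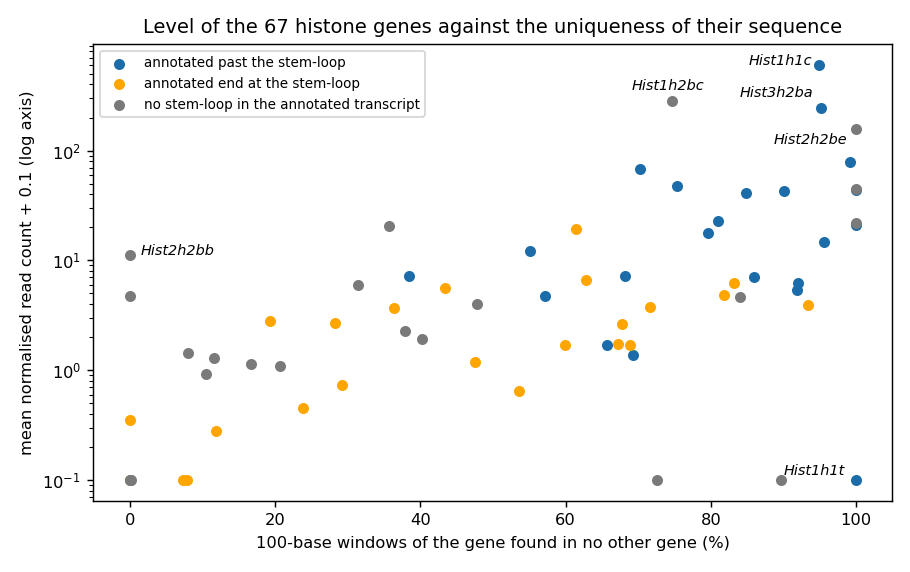
Mean normalised read count over 5 libraries plus 0.1 (log axis) against the share of each gene's 100-base windows that occur in no other annotated gene (%), for the 67 members, coloured by how the annotated transcript ends. The 4 members with a mean of at least 100 lie to the right, with 74.6% to 100% of their windows unique, and members annotated to end at the stem-loop lie mostly below 10 normalised counts.

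The uniqueness of a member's sequence went with whether it was tested, as the plot of level against uniqueness shows. The median share of unique windows was 87.5% over the 20 tested members and 43.4% over the 47 that were not tested, with or without reads. Uniqueness also went with the annotated 3′ end. The median was 84.9% for members annotated past the stem-loop, of which 13 of 23 were tested. It was 47.6% for those that ended at it (1 of 23 tested) and 35.7% for those without one (6 of 21 tested). The parts of uniqueness and of the 3′ end were not tested. By class, the median share was 99.6% for H1, 30.1% for H2A, 63.6% for H2B, 50.3% for H3 and 81.0% for H4, and the number of tested members was 5, 1, 6, 1 and 7 in the same order. Hist2h2bb was tested although none of its windows was unique, and its value is uncertain.

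After Upf1 knockdown 3 of the 20 tested members rose and none fell (DESeq2, Benjamini-Hochberg adjusted p under 0.05). This was 15.0% of tested members. Over all 15191 tested genes 44.9% were called, 22.0% higher and 22.9% lower, a background not matched for level. The 3 were Hist1h1c, the linker histone H1.2 (also named H1f2), and the H2B genes Hist2h2be and Hist1h2be. At an unadjusted p under 0.05 (DESeq2), 5 members were higher and 0 were lower. The share of all tested genes at this unadjusted threshold was not computed, so this count has no background beside it. By edgeR, 8 of 21 tested members were called higher (38.1%) and 0 lower. Of all genes tested by edgeR 54.6% were called, 27.5% higher and 27.1% lower. The share of members called higher was thus below that of all tested genes by DESeq2 and above it by edgeR. The siUpf1 libraries all lay above the siCtl libraries in 9 of 20 tested members (45.0%) and all below in 0, beside 34.3% and 35.2% of all tested genes. The fitted log2 fold change was above 0 in 16 members and below 0 in 4, with a median of 0.37 beside -0.00 over all tested genes. The members were measured less precisely than most genes, with a median SE of 0.395 on the log2 scale beside 0.108. Among tested genes with a mean under 100, where 16 of the 20 members lay, 1 member was called higher (6.25%) and 0 lower, beside 6.17% of all such genes higher and 6.13% lower.

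**Figure D2:**
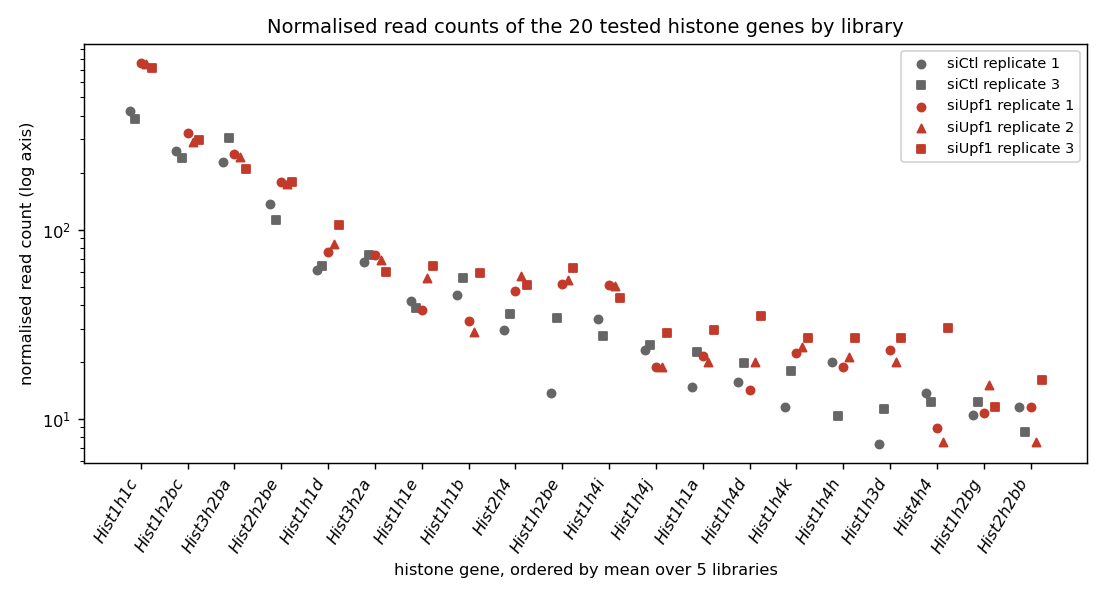
Normalised read counts (log axis) of the 20 tested members in each library, ordered by mean count, with siCtl in grey and siUpf1 in red and a symbol for each replicate number. The 3 siUpf1 values of Hist1h1c, from 713 to 758, lie well above its siCtl values of 385 and 422, while the groups overlap for most members under 100.

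Hist1h1c (ENSMUSG00000036181.2, chr13:23738808-23740367, + strand, 1 exon) had the lowest adjusted p of any tested member. Its normalised count was 422 and 385 in siCtl and 758, 747 and 713 in siUpf1. The siUpf1 libraries did not overlap the siCtl libraries and lay close together. Its log2 fold change was 0.87 (SE 0.104, 95% interval 0.67 to 1.08, DESeq2 adjusted p = 8.17e-16), which is 1.83-fold. The call held under every alternative that was run, with log2 fold changes from 0.80 to 0.94 and adjusted p-values up to 5.52e-06. Per kilobase of exon its mean was 259 in siCtl and 474 in siUpf1. The annotated transcript runs 840 bases past the stem-loop shown above and has a poly(A) signal near its end, and 94.9% of its windows were unique.

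Hist2h2be (H2bc21), which encodes an H2B protein, had normalised counts of 136 and 112 in siCtl and 179, 173 and 178 in siUpf1. The groups did not overlap. Its log2 fold change was 0.51 (SE 0.193, DESeq2 adjusted p = 0.0203). The call was lost when siCtl replicate 3 or any one siUpf1 library was left out, with adjusted p-values of 0.290 without siCtl replicate 3 and 0.0806, 0.0576 and 0.0898 without siUpf1 replicates 1, 2 and 3, and 0.202 with the replicate number as a block. All of its windows were unique.

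Hist1h2be (H2bc6), another H2B gene, had normalised counts of 13.6 and 34.0 in siCtl and 51.6, 54.0 and 62.4 in siUpf1. The groups did not overlap, but the siCtl libraries differed from each other more than the siUpf1 libraries did. Its log2 fold change was 1.22 (SE 0.405, DESeq2 adjusted p = 0.00723). Without siCtl replicate 1 the log2 fold change was 0.72 and the adjusted p 0.256. The adjusted p was 0.0701 without siUpf1 replicate 3 and 0.0750 with the block. The gene is annotated with a distant exon that overlaps Hist1h1e on the same strand, so reads there cannot be given to either gene with certainty.

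The other H2B genes with a mean of at least 100 were not called by DESeq2. Hist1h2bc (H2bc4) had 261 and 239 normalised counts in siCtl and 324, 289 and 299 in siUpf1. The groups did not overlap and the log2 fold change was 0.28 (SE 0.145, 95% interval 0.00 to 0.57, DESeq2 adjusted p = 0.0974), while edgeR gave an adjusted p of 0.0153. Hist3h2ba (H2bu2) had 227 and 305 in siCtl and 252, 242 and 208 in siUpf1. Here the groups overlapped, and the log2 fold change was -0.19 (SE 0.168, 95% interval -0.52 to 0.14, DESeq2 adjusted p = 0.384). Per kilobase of exon Hist3h2ba had the highest mean of all members in siCtl, 433, followed by Hist1h1c at 259 and Hist1h2bc at 216. Hist1h2bg and Hist2h2bb had log2 fold changes of 0.12 and 0.25, with intervals reaching past 1 in both directions.

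The linker histone genes other than Hist1h1c did not pass the test. Hist1h1d (H1.3) had 60.8 and 64.2 normalised counts in siCtl and 76.5, 84.1 and 105 in siUpf1, with no overlap. Its log2 fold change of 0.51 (SE 0.276) had an adjusted p of 0.128 by DESeq2 and 0.0268 by edgeR. Hist1h1b (H1.5) had 45.1 and 55.7 in siCtl and 32.9, 28.9 and 58.8 in siUpf1, and the groups overlapped, with siUpf1 replicate 3 the highest of all libraries. Hist1h1e (H1.4) and Hist1h1a (H1.1) had log2 fold changes of 0.37 and 0.34, again with overlap.

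Among the H3 genes 1 was tested and among the H4 genes 7, and none of these was called by DESeq2. Hist1h3d (H3c4) had the highest fitted change of any tested member, with 7.34 and 11.3 normalised counts in siCtl and 23.1, 20.1 and 26.7 in siUpf1. The groups did not overlap, and the log2 fold change of 1.32 (SE 0.589, 95% interval 0.16 to 2.48) had an adjusted p of 0.0551 by DESeq2 and 0.00624 by edgeR. It passed in DESeq2 too (adjusted p = 0.0381) when a minimum of 10 counts in 2 libraries replaced the tool's own filter. Hist2h4 had 29.4 and 35.9 in siCtl and 47.1, 56.5 and 50.8 in siUpf1, and Hist1h4i had 33.5 and 27.4 in siCtl and 50.7, 50.2 and 43.7 in siUpf1. In both H4 genes the groups did not overlap, the log2 fold changes were 0.65 (SE 0.359) and 0.66 (SE 0.371), and edgeR but not DESeq2 called them (adjusted p = 0.0221 and 0.0218 by edgeR, 0.132 and 0.138 by DESeq2). Hist1h4k was likewise higher in every siUpf1 library, with a log2 fold change of 0.72 (SE 0.528), and only 35.7% of its windows were unique. Hist4h4 had 13.6 and 12.3 in siCtl and 8.89, 7.53 and 30.3 in siUpf1, so that its siUpf1 replicate 3 lay above, and the other siUpf1 libraries below, both siCtl libraries. The only H2A gene tested, Hist3h2a, had a log2 fold change of -0.07 (SE 0.282, 95% interval -0.62 to 0.48).

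**Figure D3:**
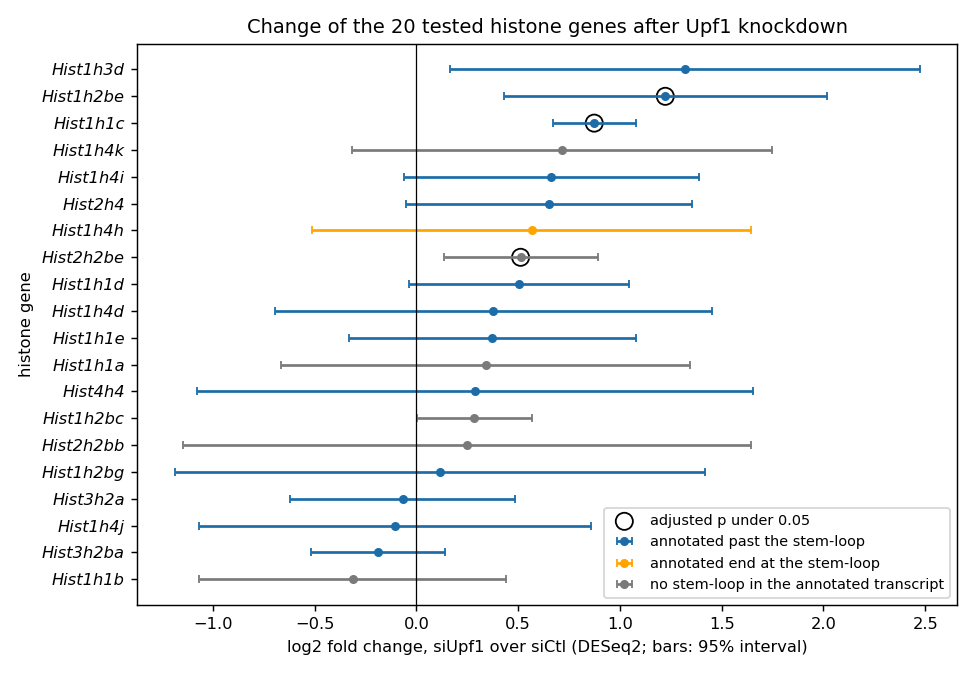
Log2 fold change of siUpf1 over siCtl with its 95% interval (DESeq2) for the 20 tested members, coloured by how the annotated transcript ends, with a ring around the 3 members that were called. Of the 20 values 16 lie above 0, and the intervals of 12 of the 17 members that were not called include 1.

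A p that misses the threshold does not show that the other members did not change. As the plot of fold changes shows, the 95% interval of 12 of the 17 members that were not called still included a log2 fold change of 1. For 3 of the 17 the interval excluded a change of 1 in either direction.

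**Figure D4:**
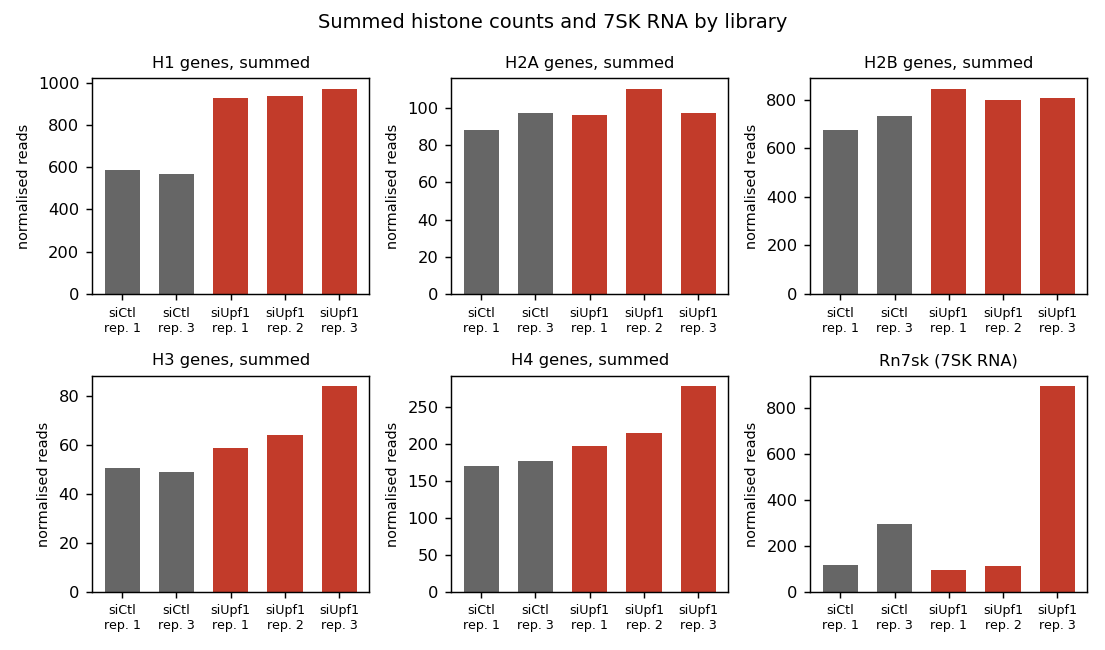
Summed normalised read counts of the H1, H2A, H2B, H3 and H4 members and of Rn7sk (7SK RNA) in each library, with siCtl in grey and siUpf1 in red. The summed H1 counts are 585 and 566 in siCtl and 926 to 971 in siUpf1, the H2A sums overlap, and siUpf1 replicate 3 is highest for H1, H3, H4 and Rn7sk.

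Since reads of near-identical paralogs can be dropped or assigned to each other, the counts were also summed over each class. The H1 members summed to 585 and 566 normalised counts in siCtl and 926, 935 and 971 in siUpf1, 1.64-fold higher on average. Hist1h1c carried this difference, since the other H1 members summed to 162 and 181 in siCtl and 168, 188 and 258 in siUpf1, with overlapping groups. The H2B members summed to 674 and 733 in siCtl and 846, 801 and 807 in siUpf1 (1.16-fold, no overlap). The H2A members summed to 88.1 and 97.2 in siCtl and 96.1, 110 and 97.2 in siUpf1, which overlap. The H3 members summed to 50.3 and 49.1 in siCtl and 58.7, 64.0 and 83.8 in siUpf1, and the H4 members to 170 and 176 in siCtl and 197, 215 and 278 in siUpf1. In both of these the groups did not overlap, and siUpf1 replicate 3 was the highest library by a wide margin. The ratio of group means was 1.39 for H3 and 1.33 for H4, and 1.23 and 1.19 without siUpf1 replicate 3. In bulk samples, a changed share of cells of a type (such as cells in S phase) and changed RNA per cell cannot be told apart.

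The library siUpf1 replicate 3 also stood apart in several RNAs that carry no poly(A) tail. Rn7sk, the 7SK RNA, had 118 and 294 normalised counts in siCtl and 96.1, 110 and 894 in siUpf1. The rRNA genes summed to 1571 and 1811 in siCtl and 1221, 1757 and 3477 in siUpf1, and snRNA and scaRNA genes were highest in the same library. Gm42418, annotated as a lincRNA and known to collect rRNA reads, was not highest there, with 1500026 and 1179170 in siCtl and 1037529, 1873105 and 1386187 in siUpf1. Histone members were highest in this library in 12 of the 20 tested and in 17 of the 38 with reads that were not tested. The share of all genes that were highest in this library was not computed, so these counts have no background beside them. The part of this library's difference in the histone values was not tested. Of the 3 called members, Hist1h2be was highest in siUpf1 replicate 3, and Hist1h1c and Hist2h2be were highest in siUpf1 replicate 1. The log2 fold change of Hist1h1c was as large without siUpf1 replicate 3, at 0.90.

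The counts were also summed by annotated 3′ end. The 23 members annotated past the stem-loop summed to 1001 and 1089 normalised counts in siCtl and 1454, 1483 and 1482 in siUpf1 (1.41-fold, and 1.41-fold without siUpf1 replicate 3). Hist1h1c carried most of this difference too. Without it the other 22 summed to 579 and 704 in siCtl and 696, 737 and 769 in siUpf1, and the groups overlapped, with a ratio of 1.14. The 23 members annotated to end at the stem-loop summed to 61.8 and 51.9 in siCtl and 60.5, 69.0 and 103 in siUpf1. These groups overlapped, and the ratio of 1.36 became 1.14 without siUpf1 replicate 3. The 21 members with no stem-loop in the transcript summed to 504 and 481 in siCtl and 609, 572 and 652 in siUpf1 (1.24-fold). Of the tested members, 13 were annotated past the stem-loop, 1 ended at it (Hist1h4h) and 6 held none, with 2, 0 and 1 called higher.

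The 38 untested members with reads gave little to compare. Summed over all members that were not tested, the counts were 101 and 112 in siCtl and 93.4, 122 and 163 in siUpf1, which overlap, and the ratio of 1.18 was 1.01 without siUpf1 replicate 3. At these counts a moderate change of a single gene was not detectable. Hist1h3i had 1 and 3 reads in siCtl and 12, 7 and 7 in siUpf1, and Hist1h2ad had 1 and 0 in siCtl and 9, 5 and 3 in siUpf1. Both sets were free of overlap between the groups, with siUpf1 above, as were those of Hist1h2ac and Hist1h2bp. In the other untested members with reads the groups overlapped. The share of all untested genes without overlap was not computed, so these members have no background beside them. Neither Hist1h3i nor Hist1h2ad was tested in the main fit. Without its filter their DESeq2 adjusted p-values were 0.199 and 0.187.

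**Figure D5:**
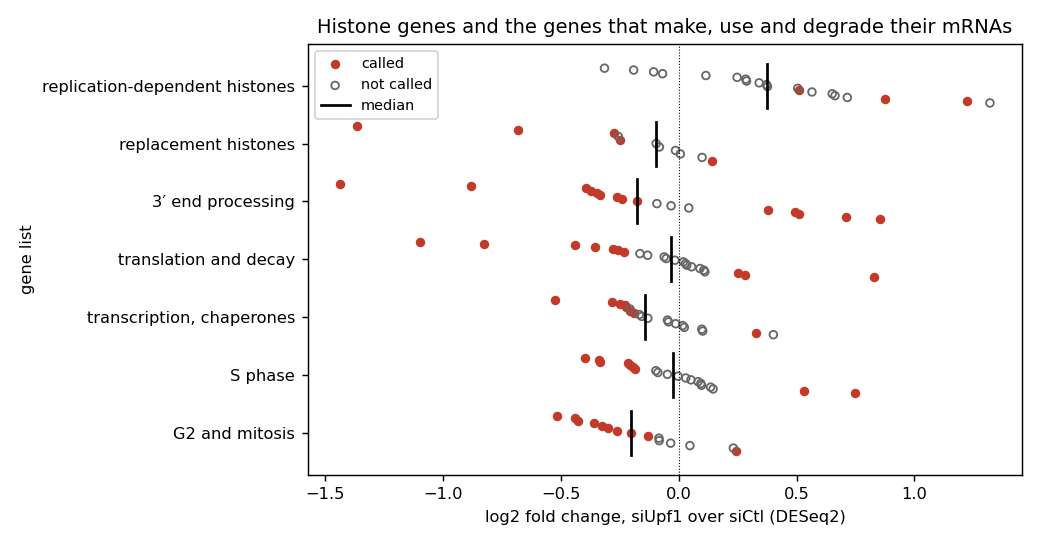
Log2 fold change of siUpf1 over siCtl (DESeq2) for the tested members and for the tested genes of 6 companion lists, with called genes filled, genes not called open, and a line at each median. The median of the replication-dependent histones is 0.37, and those of the lists lie between -0.20 and -0.02.

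The replacement histones are made outside S phase as well, and most have polyadenylated mRNAs, which poly(A) selection captures. How much RNA of each gene lacks a poly(A) tail was not measured. Of 11 tested, 1 was called higher and 4 lower by DESeq2 (45.5%, near the 44.9% of all tested genes), with a median log2 fold change of -0.10. That 44.9% includes tested genes with a mean under 100, of which 12.3% were called. For this list and those below, the background was not matched for level. The linker histone gene H1fx fell by 1.36 on the log2 scale (SE 0.0798), from 2496 and 2510 normalised counts in siCtl to 888, 1092 and 948 in siUpf1. H2afx, which encodes the H2A variant phosphorylated at DNA breaks, fell by 0.68 (SE 0.0908), from 983 and 987 to 596, 653 and 600. H3f3b, which encodes the H3.3 protein, fell by 0.25 (SE 0.0410), and these 3 calls held under every alternative. H2afv, an H2A.Z gene, fell by 0.27, a call lost without siCtl replicate 3 (adjusted p = 0.267), siUpf1 replicate 1 (0.0513) or siUpf1 replicate 3 (0.0843). H3f3a, the other H3.3 gene, rose by 0.14 (SE 0.0583, DESeq2 adjusted p = 0.0372), and this call was lost whichever library was left out, with adjusted p-values from 0.0524 without siCtl replicate 1 to 0.453 without siCtl replicate 3. H1f0, H2afz, H2afj, H2afy, H2afy2 and Cenpa were not called.

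The genes that form the 3′ ends of histone mRNAs moved in both directions. Of 17 tested, 5 rose and 9 fell (82.4%, beside 44.9% of all tested genes), with a median log2 fold change of -0.18. Slbp, which encodes the stem-loop binding protein, had 1162 and 1215 normalised counts in siCtl and 980, 1025 and 1017 in siUpf1, and the groups did not overlap. It fell by 0.24 on the log2 scale (SE 0.0778, DESeq2 adjusted p = 0.00590), and the adjusted p was 0.147 without siCtl replicate 3 and 0.152 with the block. Zfp473, the gene of a zinc finger protein of the U7 snRNP pathway, fell by 1.43 (SE 0.311), and Nelfe, a subunit of the negative elongation factor, fell by 0.88 (SE 0.0813). Among those that rose were Snrpb at 0.85 and Lsm11 at 0.49, which encode proteins of the ring around snRNAs and U7 RNA, Nelfb at 0.71, Cpsf2 at 0.51, a subunit of the cleavage complex, and Ncbp1 at 0.38, the large cap-binding subunit.

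Of the genes for translation and decay of histone mRNA, 3 of 22 rose and 7 fell (45.5%, near the 44.9% of all tested genes), with a median of -0.03, and Upf1 itself is one of the 7. Tut4 and Tut7, which encode terminal uridylyltransferases, fell by 0.83 (SE 0.155) and 0.28 (SE 0.0778). The call of Tut7 was lost without siCtl replicate 1 (adjusted p = 0.114). Patl1, which encodes a partner of the LSM ring that binds the oligouridylated end, fell by 0.44. Lsm2, which encodes a subunit of that ring, fell by 0.35. Dis3 and Atr fell by 0.23 and 0.26, calls that were lost without siCtl replicate 3 (adjusted p = 0.0564 and 0.138), and that of Atr also without siCtl replicate 1 (0.0702), siUpf1 replicate 2 (0.0958) or siUpf1 replicate 3 (0.0924). Ctif, which encodes a translation factor bound to the nuclear cap-binding complex, rose by 0.83 (SE 0.0758), from 852 and 917 normalised counts to 1524, 1601 and 1592. Lsm7 and Dcp1a rose by 0.28 and 0.25, and these calls were lost without siCtl replicate 1 (adjusted p = 0.151) and siCtl replicate 3 (0.172), respectively. Eri1, the gene of the exonuclease that trims the histone stem-loop, had 4146 and 4161 normalised counts in siCtl and 4475, 4199 and 4265 in siUpf1, and the fitted change of 0.06 on the log2 scale (SE 0.0504) did not pass the test.

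The transcription factors and chaperones of histones gave 1 higher and 7 lower of 20 tested (40.0%, beside 44.9% of all tested genes), with a median of -0.14. Ccne1, the cyclin E gene whose product acts with CDK2 on the histone locus factor NPAT, fell by 0.53 (SE 0.0780). For Npat the fitted log2 value was -0.17 (SE 0.0767, DESeq2 adjusted p = 0.0646). Asf1b, an H3-H4 chaperone of dividing cells, rose by 0.33 (SE 0.0698).

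Genes of the cell cycle phase in which these histones are made did not move as one group. Of 20 S phase genes 2 rose and 7 fell (45.0%, near the 44.9% of all tested genes), with a median of -0.02. Cdc6, for licensing of origins, rose by 0.53 (SE 0.0778), while Pcna, the sliding clamp of DNA polymerases, fell by 0.40 (SE 0.0547), from 3138 and 3213 normalised counts to 2381, 2435 and 2431. Of 15 genes of G2 and mitosis 1 rose and 9 fell (66.7%, beside 44.9% of all tested genes), with a median of -0.20. The part of any difference in cell cycle in the histone values was not tested.

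The Upf1 siRNA was 19 bases long, and its printed strand is ucaagguuccugauaauua, 5′ to 3′. Sites complementary to bases 2 to 8 of either strand were searched in the member transcripts, since an siRNA can act through such sites as a microRNA does. The site gataatt, for the strand that pairs with Upf1 mRNA, was in 2 members, of which Hist4h4 was tested, and over all genes in 13.2% of transcripts. The site aaccttg, for the printed strand, was in 4 members, of which Hist1h1d, Hist3h2a and Hist1h3d were tested, and over all genes in 18.5%. None of the 3 members that were called held either site.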

How the data were processed

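The authors deposited unscaled counts of reads for each gene, made from poly(A) RNA libraries of 5 N2A samples. Per the submitters' processing notes and the study's methods, reads were trimmed with fastp, mapped to GRCm38.p6 with STAR 2.7.0f and assigned to exons, reverse strand only, by featureCounts (Subread 1.6.4), with GENCODE M22 or M25 annotation. No option for multi-mapped or multi-overlapping reads is stated, and how reads of identical paralogs were assigned is not given in the sources used here. Counts were neither normalised nor pooled.

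The whole table was fitted with the DESeq2 1.42.0 Wald test (R 4.3.3, median-of-ratios size factors, independent filtering, Benjamini-Hochberg over all tested genes, threshold 0.05), with group as the only term. The study's methods name DESeq2 and this threshold. Alternatives were edgeR 4.0.16 quasi-likelihood with TMM, other size factors and filters, a block for the replicate number, and omission of each library in turn. With 2 libraries against 3, an exact permutation test cannot give a p-value under 0.1, so none was made. Sums over classes carry no test. Both fits were tested on simulated data.

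Members and lists were chosen with earlier results of these data known. Any member, any gene of the 6 companion lists and 4 marker lists and Upf1 could be named, with values by library from a mean of 100, and further members and list genes were given by library after their values were seen. Positions, stem-loops and 100-base windows came from GENCODE M21 transcripts (same build, 67 of 67 members with the same version, 99.7% of table identifiers). Windows were compared with annotated transcripts only. Some list genes are not reported here by name. Floors cover counting error only. The number of columns of per-sample values left without a sample was 0.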

Additional observations from a re-analysis of the deposited data

How the results depend on the processing

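The count of members called higher was 3 with DESeq2, 8 with edgeR, 1 with the replicate block and 1 to 2 when a library was left out, and no member was called lower under any alternative run. Among members with at least 80% unique windows, a restriction chosen after seeing the data, all 3 calls were present. Of the replacement histones, 0 were called higher with TMM size factors, without the filter and with the block, and 0 in each fit that left out a library. With edgeR the chaperone list gave 2 higher and 11 lower, the S phase list 4 higher and the G2 list 2 higher. The block gave 4 lower of the 3′ end genes and 1 higher and 4 lower of the decay genes. It gave 2 higher and 2 lower of the chaperone list and 0 higher of the G2 list. Among all 12606 genes tested with the block, 1957 were called higher and 1962 lower. The main fit called 3341 and 3481 of 15191, and edgeR 4220 and 4172 of 15368. Every fit that omitted a siUpf1 library called fewer in both directions than the main fit. Of the members, 11 were tested with the block, 20 in the main fit and 21 with edgeR. A shifted list count alone thus does not show a change in that list. Leaving out a library gave 4 to 8 lower for the 3′ end genes, 1 to 2 higher and 2 to 7 lower for the chaperone list, 3 to 6 lower for S phase and 0 to 1 higher for G2. The decay median was -0.0273 with edgeR, -0.0432 with TMM, -0.0120 with total counts, -0.0304 with the block and -0.0498 to -0.0139 with a library left out. The G2 median was -0.18 with total counts and -0.27 to -0.14 with a library left out, and the 3′ end median -0.23 to -0.13. The log2 ratio of H2B sums was 0.16 to 0.28 with a library left out. The cause of these shifts was not tested. Same-numbered libraries did not deviate together (r = -0.03 for number 1 and -0.06 for number 3 over 14818 genes). With 2 siCtl libraries, whose deviations from their mean mirror each other, this cannot decide whether the numbers pair the samples. A group left with 1 library was assumed to vary like the other. Low counts limit most members, since only 20 of 67 could be tested.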
